A study of Mus musculus with 10 samples.

Results

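The Dlk1-Dio3 domain is a cluster of imprinted genes on mouse chromosome 12, and it was followed here through 5 genes, Meg3, Rian, Mirg, Dlk1 and Dio3. They were taken by symbol from a table of 54456 genes, with earlier results of these data known. All 5 were found and passed the filter on low values. The study rewrote the X-linked gene Taf1, which encodes a subunit of the general transcription factor TFIID, in mouse embryonic stem cells to model X-linked dystonia parkinsonism, a disease tied to an SVA retrotransposon in human TAF1. Stranded total RNA was sequenced from 7 libraries of C57BL/6J embryonic stem cells that have columns in the table. A further 3 samples of the series were not analysed here.

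The 3 converted lines were conv-dSVA_F&D, conv-dSVA_F and conv-dSVA_D, with 2 libraries each, and the wild type MK6 had 1 library. All 3 converted lines carry, by their genotype labels, a loxP site labelled Taf1_i24, the LPSwapinRed_pUC19 insertion labelled Taf1_3_4, a humanized Taf1 allele called hTAF1 mousified and converted, and exposure to the plasmids pSpCas9, pSpCas9GFP and pCAGiCre. The allele of conv-dSVA_F&D also carries SVAdel and dSVA2, that of conv-dSVA_F carries SVAdel, and that of conv-dSVA_D carries dSVA2. The wild type carries none of these. All were cultured on a gelatin coat with serum and LIF plus 2 kinase inhibitors, CHIR99021 against GSK3 and PD0325901 against MEK. The labels give 1 line name for each genotype, so genotype and line cannot be told apart, and they are silent on whether replicates were separate cultures, so a p-value here reflects only how far these libraries spread, which may be a technical spread.

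In an imprinted domain the maternal and the paternal copies of a gene are not used alike. In the mouse embryo the paternal chromosome of this domain expresses the protein-coding genes Dlk1, Rtl1 and Dio3, and the maternal chromosome expresses the noncoding RNAs Meg3, Rian and Mirg with the snoRNAs and miRNAs nested in them, under control of a region between Dlk1 and Meg3 that is methylated on the paternal copy. Embryonic and induced pluripotent stem cells can lose or gain the noncoding RNAs in culture, and the domain is therefore often read as a measure of epigenetic state. The deposited values do not separate the parental copies.

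By the GENCODE M21 annotation of GRCm38 the domain runs over 828 kb, and all 5 genes lie on the forward strand. Dlk1 (ENSMUSG00000040856.17) lies at chr12:109452823-109463336 and Meg3 (ENSMUSG00000021268.17) at chr12:109541001-109571726. Rian (ENSMUSG00000097451.10) lies at chr12:109603940-109661716 and Mirg (ENSMUSG00000097391.8) at chr12:109729764-109749460. Dio3 (ENSMUSG00000075707.5) lies at chr12:110279068-110281097. The annotation places 117 genes between the start of Dlk1 and the end of Dio3, of which 102 were in the table, 63 had a read in at least 1 library, 13 had reads in all 7 libraries and 11 passed the filter of a mean normalized count of 10. Those 11 were Dlk1, Meg3, Rian, Mirg, Dio3, Dio3os, B830012L14Rik, Gm37899, Gm23787, Mir433 and Mir3070b.

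The starts of Meg3, Dlk1 and Dio3 are shown because these genes begin the noncoding and the protein-coding transcripts whose levels are described below. For Meg3 the first of its RefSeq starts by position is used. Each sequence is the RefSeq promoter of GRCm38.p6, 250 bases before to 50 after the start, 5′ to 3′ on the forward strand, with CG dinucleotides in capitals.
Meg3, chr12:109540746-109541045: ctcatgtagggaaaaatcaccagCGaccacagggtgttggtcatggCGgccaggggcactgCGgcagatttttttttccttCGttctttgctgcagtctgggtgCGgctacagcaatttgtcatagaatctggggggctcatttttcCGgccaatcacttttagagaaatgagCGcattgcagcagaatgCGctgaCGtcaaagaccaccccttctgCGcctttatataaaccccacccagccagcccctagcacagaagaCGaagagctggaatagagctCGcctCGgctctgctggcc
Dlk1, chr12:109452573-109452872: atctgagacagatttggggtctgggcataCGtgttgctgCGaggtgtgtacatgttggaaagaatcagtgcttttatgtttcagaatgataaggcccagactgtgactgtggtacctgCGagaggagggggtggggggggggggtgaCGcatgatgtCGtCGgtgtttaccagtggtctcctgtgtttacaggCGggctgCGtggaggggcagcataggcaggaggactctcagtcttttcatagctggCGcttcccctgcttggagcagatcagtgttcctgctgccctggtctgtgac
Dio3, chr12:110278980-110279279: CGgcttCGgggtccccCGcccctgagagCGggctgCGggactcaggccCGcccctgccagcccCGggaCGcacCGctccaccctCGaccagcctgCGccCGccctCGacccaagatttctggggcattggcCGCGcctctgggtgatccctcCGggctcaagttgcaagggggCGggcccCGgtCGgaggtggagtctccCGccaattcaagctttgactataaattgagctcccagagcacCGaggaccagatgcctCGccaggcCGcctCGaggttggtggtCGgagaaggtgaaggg

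The Dio3 window holds 25 CG dinucleotides, more than 81.6% of the 32851 RefSeq promoters of the same length. The Meg3 window holds 13 and the Dlk1 window 9, and 62.1% and 54.2% of promoters hold fewer. The median promoter holds 7. The motif TGCCGC, the core of the sites bound by the imprint protector ZFP57, was searched on both strands and matched once in the Meg3 window, not in the Dlk1 or Dio3 window, and in 11.6% of all promoters. The motif TATAAA, searched the same way, was found in the Meg3 window on both strands in overlapping positions, in the Dio3 window once, not in the Dlk1 window, and in 13.6% of all promoters. Another RefSeq window of Meg3, chr12:109545148-109545447, is not shown. It holds 1 CG dinucleotide, with 5.43% of promoters holding fewer, and neither motif. The Dio3 window begins before the annotated start of the gene at chr12:110279068, and most of it lies within the annotated gene. A match is a description of the letters, and no methylation or binding was measured.

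Of 61 domain miRNA genes in the table, Mir433 and Mir3070b passed the filter. Their mature sequences are shown with those of Mir434, just below the filter, as RefSeq gives them for GRCm38.p6, 5′ to 3′, with the seed (bases 2 to 8) in capitals. All 3 genes lie in the stretch antisense to Rtl1 or just before it.
miR-433-5p: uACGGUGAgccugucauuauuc
miR-433-3p: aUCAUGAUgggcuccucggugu
miR-3070-5p: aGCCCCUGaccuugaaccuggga
miR-3070-2-3p: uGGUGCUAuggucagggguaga
miR-434-5p: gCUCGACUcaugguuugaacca
miR-434-3p: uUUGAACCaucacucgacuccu

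The 6 seeds shown all differ. Counted gene by gene, the domain holds 114 mature miRNA entries from these 61 genes, with 104 distinct seeds. Of the seeds, 10 are shared by 2 entries each, among them the 2 seeds of Mir3070b, which its neighbour Mir3070a also has. The sequence of miR-3070-5p is the same from both genes and is counted for each. The snoRNA genes of the domain are of the C/D box class, which guide RNA methylation or whose targets are unknown. The snoRNA with the highest mean, Gm23787 at chr12:109684962-109685034, and the next, Gm25856 at chr12:109682994-109683068, are shown from the GRCm38 reference on the forward strand, with a C box (TGATGA in the first 25 bases) and, where found, a D box (CTGA in the last 14 bases) in capitals.
Gm23787: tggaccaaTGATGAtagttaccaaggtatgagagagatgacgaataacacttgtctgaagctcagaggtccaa
Gm25856: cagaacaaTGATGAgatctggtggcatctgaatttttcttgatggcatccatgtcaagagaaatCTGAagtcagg

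Both boxes were found in 11 of the 19 snoRNA genes in the table by this rule. In Gm23787 only the C box was found.

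Values are normalized counts, that is reads of a gene divided by 1 size factor for the library, and differences are log2 of the count plus 1. Reads assigned to genes were between 16588467 and 26562418 in the 7 libraries. A gene at 0 could have had up to 3 reads, worth 2.45 to 4.18 normalized counts depending on the library, and such limits cover counting error only. In these bulk samples fewer cells of a type and less RNA per cell cannot be told apart. All 12 embryonic stem cell markers checked, Pou5f1 and Nanog among them, were above 0 in every library, and their summed level was between 154359 and 195706. Replicates of a group correlated at Pearson r of 0.959 in conv-dSVA_F&D, 0.974 in conv-dSVA_F and 0.979 in conv-dSVA_D over the genes tested. The first conv-dSVA_F&D library correlated at 0.961 to 0.969 with the 5 libraries of other groups, above its own replicate, while the chi-square of its reads per degree of freedom was 33.5 with the replicate and 41.6 to 67.0 with the others. Taf1, the edited gene, was at 1116 and 1088 in conv-dSVA_F&D, 501 and 589 in conv-dSVA_F, 362 and 418 in conv-dSVA_D and 2898 in the wild type. The converted lines carry a humanized allele, while the processing notes list the mouse build mm10. How many reads of that allele were counted as Taf1 was not tested, so these values may understate Taf1 in the converted lines.

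All 5 genes were detected in all 7 libraries, and none was lost in any line. The noncoding RNAs Meg3, Rian and Mirg were lowest in the wild type and higher in each of the 6 converted libraries, as was Dlk1, while Dio3 was highest in the wild type. Meg3, a long noncoding RNA, was 2.35 to 4.84 times the wild type in the converted libraries, and Dio3, the deiodinase that inactivates thyroid hormone, was 0.410 to 0.648 times the wild type. Only 2 line-by-line differences passed the test, both between conv-dSVA_D and the wild type, Meg3 being higher and Dio3 lower in conv-dSVA_D. Between the converted lines no member passed.

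**Figure D1:**
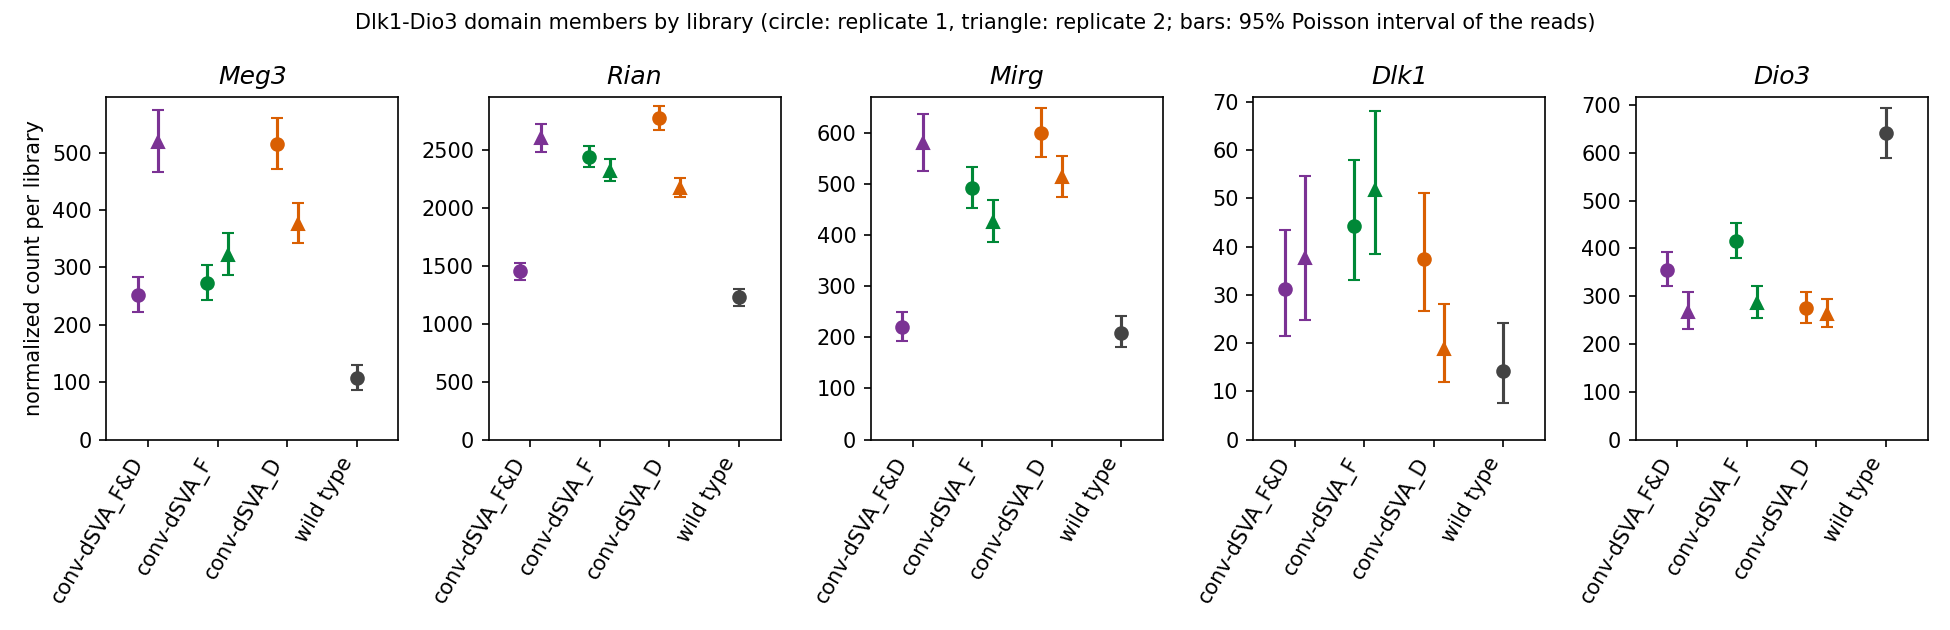
Normalized count (vertical axis, from 0) of each of the 5 genes in each library, grouped as conv-dSVA_F&D, conv-dSVA_F, conv-dSVA_D and wild type; circles are replicate 1, triangles replicate 2, and bars are 95% Poisson intervals of the reads, which cover counting error only. The wild type is the lowest library for Meg3, Rian, Mirg and Dlk1 and the highest for Dio3, and the conv-dSVA_F&D replicates lie far apart for Meg3, Rian and Mirg.

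Meg3 was at 252 and 518 normalized counts in conv-dSVA_F&D, 273 and 322 in conv-dSVA_F, 515 and 376 in conv-dSVA_D and 107 in the wild type. The group means were 385.0 ± 188 in conv-dSVA_F&D, 298 ± 34.5 in conv-dSVA_F and 446 ± 97.8 in conv-dSVA_D (SD, n = 2 each). The converted lines overlapped each other except conv-dSVA_F and conv-dSVA_D, whose ranges did not meet, and no converted library reached down to the wild type. Against the wild type Meg3 rose in conv-dSVA_D by 2.03 ± 0.39 on the log2 scale (SE, limma adjusted p = 0.0303). The differences were 1.75 ± 0.39 in conv-dSVA_F&D (adjusted p = 0.108, limma) and 1.46 ± 0.39 in conv-dSVA_F (adjusted p = 0.0846, limma), which did not pass.

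Rian, which hosts many of the snoRNAs, was the most abundant of the 5 by reads. It was at 1449 and 2599 normalized counts in conv-dSVA_F&D, 2438 and 2320 in conv-dSVA_F, 2769 and 2172 in conv-dSVA_D and 1226 in the wild type. The first conv-dSVA_F&D library stood 1.18 times above the wild type, and the other 5 converted libraries stood well above both. The differences from the wild type were 0.66 ± 0.29 in conv-dSVA_F&D (adjusted p = 0.293), 0.96 ± 0.29 in conv-dSVA_F (adjusted p = 0.110) and 1.00 ± 0.29 in conv-dSVA_D (adjusted p = 0.0891), and none passed with limma.

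Mirg, the transcript over the large miRNA cluster, was at 220 and 580 normalized counts in conv-dSVA_F&D, 492 and 427 in conv-dSVA_F, 599 and 514 in conv-dSVA_D and 210 in the wild type. The first conv-dSVA_F&D library was 1.05 times the wild type, within counting error, and the second was among the highest. The 95% Poisson intervals of these replicates, 193 to 249 and 525 to 638 normalized counts, did not meet. The differences from the wild type were 0.77 ± 0.45 in conv-dSVA_F&D (adjusted p = 0.423), 1.12 ± 0.45 in conv-dSVA_F (adjusted p = 0.208) and 1.40 ± 0.45 in conv-dSVA_D (adjusted p = 0.116), with limma.

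Dlk1, a transmembrane relative of the Notch ligands, had 13 to 52 reads per library. It was at 31.1 and 37.6 normalized counts in conv-dSVA_F&D, 44.3 and 51.8 in conv-dSVA_F, 37.5 and 18.8 in conv-dSVA_D and 14.2 in the wild type. The second conv-dSVA_D library lay close to the wild type and conv-dSVA_F was the highest line. The differences from the wild type were 1.21 ± 0.66 in conv-dSVA_F&D (adjusted p = 0.397), 1.69 ± 0.66 in conv-dSVA_F (adjusted p = 0.207) and 0.86 ± 0.66 in conv-dSVA_D (adjusted p = 0.516), with limma. None passed, and the 95% interval of the conv-dSVA_F difference was 0.20 to 3.17.

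Dio3 was at 355 and 267 normalized counts in conv-dSVA_F&D, 415 and 286 in conv-dSVA_F, 276 and 263 in conv-dSVA_D and 641 in the wild type. The conv-dSVA_D replicates were the closest of any member in that line, and no converted library reached the wild type. Dio3 fell in conv-dSVA_D by 1.25 ± 0.29 on the log2 scale relative to the wild type (limma adjusted p = 0.0469). The differences of -1.05 ± 0.29 in conv-dSVA_F&D (adjusted p = 0.142) and -0.89 ± 0.29 in conv-dSVA_F (adjusted p = 0.134) did not pass with limma.

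Against the wild type, 2 of 5 members thus passed in conv-dSVA_D, where 3.61% of the 15240 genes tested passed, 1.48% being higher and 2.13% lower. An unadjusted p under 0.05 was found for 4 of 5, beside 20.2% of all genes. In conv-dSVA_F 0 of 5 passed with limma, beside 1.82% of all genes, and all 5 had an unadjusted p under 0.05, beside 19.2% of all genes. There edgeR called 0, beside 1.66% of all genes, and DESeq2 called 2, Meg3 and Rian, beside 8.47%. In conv-dSVA_F&D 0 of 5 passed with limma, beside 0.0262% of all genes, and 3 had an unadjusted p under 0.05, beside 16.1%. There edgeR called 0, beside 0.0394% of all genes, and DESeq2 called 2, Meg3 and Dio3, beside 4.86%. These comparisons share the single wild-type library, taken to vary as much as the converted groups do. In conv-dSVA_D edgeR called the same 2 genes, beside 3.8% of all genes, and DESeq2 called Rian and Mirg as well, beside 7.57%. Shares for DESeq2 are of the genes to which it gave an adjusted p, and it gave none to Dlk1 in conv-dSVA_F and conv-dSVA_F&D. Without the first or the second conv-dSVA_F&D library 4 of 5 members passed in conv-dSVA_D and 3 of 5 in conv-dSVA_F with limma. Of all genes, 6.26% and 4.69% then passed without the first library and 6.38% and 4.69% without the second. In conv-dSVA_F&D itself 2 of 5 passed without its first library, beside 0.361%, a fit that sets 1 library against 1 and takes the spread of both from the other lines. Without any single library of conv-dSVA_F or conv-dSVA_D 0 of 5 passed in conv-dSVA_D, Meg3 having an adjusted p of at most 0.194 and a log2 difference of 1.81 to 2.26.

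The mean of the 3 converted lines was also set against the wild type, a comparison added after the values were seen. Meg3 rose by 1.75 ± 0.35 on the log2 scale (95% interval 0.97 to 2.52, limma adjusted p = 0.0486), and the other 4 genes did not pass. The differences were 0.87 for Rian, 1.10 for Mirg, 1.25 for Dlk1 and -1.06 for Dio3, with limma adjusted p of 0.109, 0.172, 0.291 and 0.0731 in that order. Of all genes tested 1.15% passed this comparison, 0.623% being higher, and an unadjusted p under 0.05 was found for 4 of 5 members, beside 18.7% of all genes. For the same comparison edgeR called 0 of 5, beside 1.78% of all genes, and DESeq2 called 4, all but Dlk1, to which it gave no adjusted p, beside 7.94%. Without the first conv-dSVA_F&D library 4 of 5 members passed with limma, beside 2.62% of all genes. The call of Meg3 held in 3 of 7 alternatives that kept all libraries, with adjusted p between 0.000183 (DESeq2) and 0.285, and it was lost with edgeR (adjusted p = 0.0566). It was also lost without any single library of conv-dSVA_F or conv-dSVA_D and held without either library of conv-dSVA_F&D, with adjusted p between 0.0113 and 0.134, while the log2 difference stayed between 1.57 and 1.92.

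In all 6 converted libraries Meg3, Rian, Mirg and Dlk1 were above the wild type and Dio3 was below it. Of all 15240 genes tested, 18.8% had all 6 converted libraries above the wild type and 19% all 6 below, all 6 being set against the same library. Of the 11 domain genes tested, 8 had all 6 converted libraries above the wild type and Dio3 alone had all 6 below. The median log2 difference of the 5 members in the mean of the converted lines was 1.10, and that of all genes tested was -0.01. Of the 12 fibroblast and feeder markers 7 were tested, and 0 passed this comparison with limma, beside 1.15% of all genes. Of the 7, 3 had an unadjusted p under 0.05, beside 18.7% of all genes. There edgeR called Col1a2 and Acta2, beside 1.78%. DESeq2 called Fbln2 and Acta2, beside 7.94%, and gave the other 5 no adjusted p. The summed level of the 12 was 309 and 320 in conv-dSVA_F&D, 369 and 340 in conv-dSVA_F, 163 and 176 in conv-dSVA_D and 880 in the wild type. Of these 12 markers 3 to 6 were at 0 in each converted library and 3 in the wild type (Dcn, Lum and Fap), while Postn was at 0 in all 6 converted libraries and at 57.9 in the wild type, and Col1a2 was at 0 to 8.36 in the converted libraries and at 96.1 in the wild type. Not all were lower: Thy1 was at 5.49 to 46.8 in the converted libraries and 29.5 in the wild type, and Twist1 was at 11.9 to 46.0 in the converted libraries and 17.5 in the wild type. The part of other cells in the wild-type values was not tested.

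**Figure D2:**
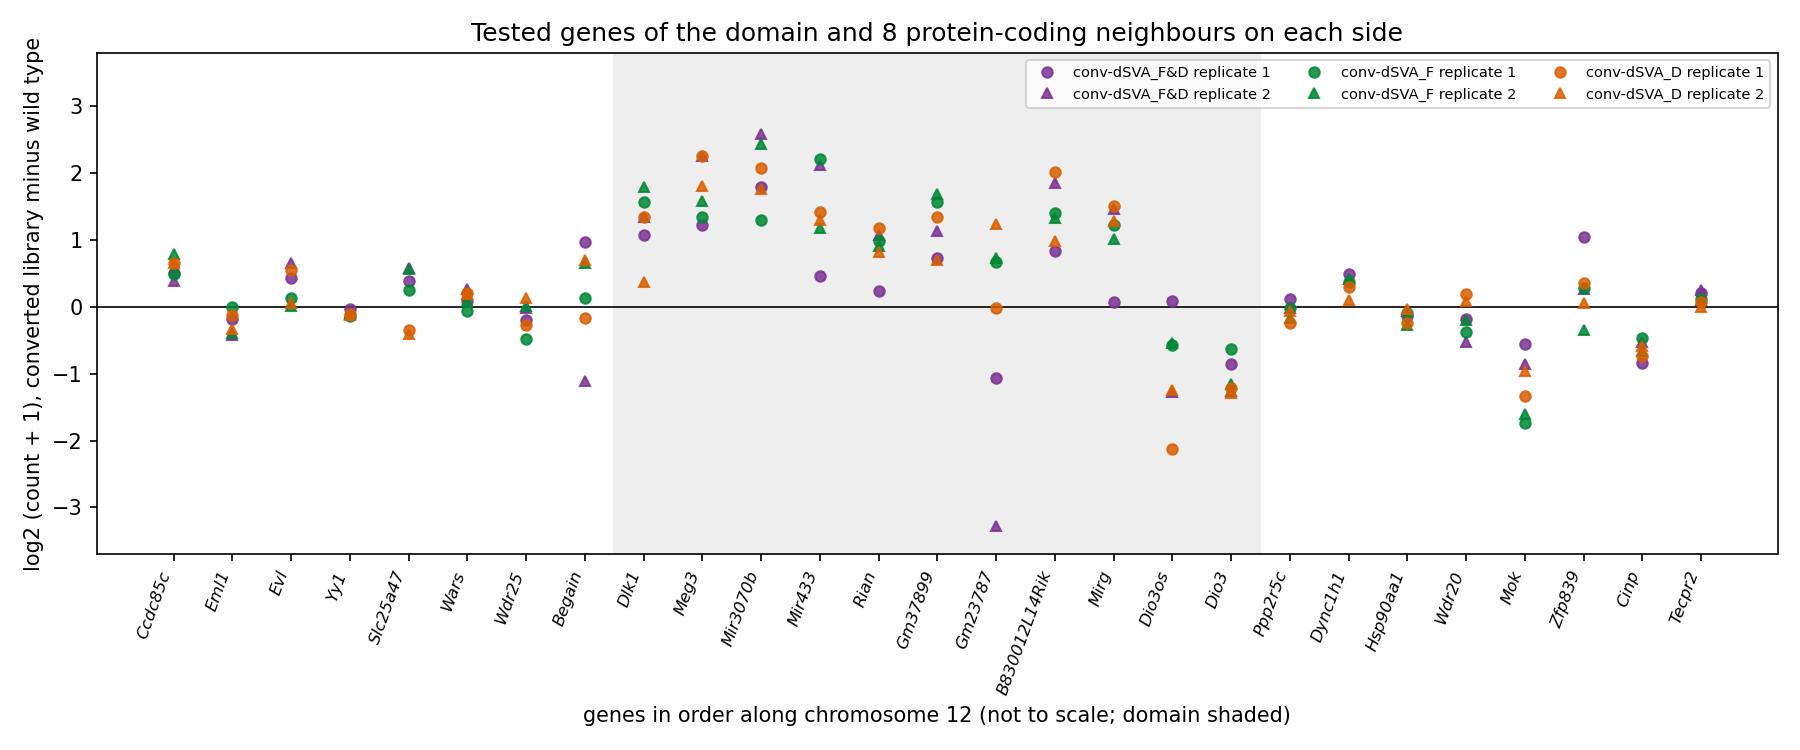
Log2 of the count plus 1 of each converted library minus that of the wild type (vertical axis) for the 11 tested genes of the domain (shaded) and 8 protein-coding neighbours on each side, in their order on the chromosome but not to scale; colours are lines, circles replicate 1 and triangles replicate 2. Of the genes between Dlk1 and Mirg all but Gm23787 lie above 0 in all 6 libraries, Dio3 lies below 0, and most neighbours lie near 0.

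The share of Meg3 among the 3 noncoding RNAs differed between libraries. Summed over Meg3, Rian and Mirg, the level was 1921 and 3697 normalized counts in conv-dSVA_F&D, 3203 and 3068 in conv-dSVA_F, 3883 and 3061 in conv-dSVA_D and 1542 in the wild type. Meg3 made up 13.1% and 14% of these reads in conv-dSVA_F&D, 8.53% and 10.5% in conv-dSVA_F, and 13.3% and 12.3% in the conv-dSVA_D replicates. In the wild type it made up 6.94% (95% Wilson interval 5.72 to 8.38%, counting error only). The share of Rian was 70.3 to 76.1% in the converted libraries and 79.5% in the wild type, which had the lowest share of Meg3 and the highest of Rian. The Wilson interval of the first conv-dSVA_F library, 7.68 to 9.46%, met that of the wild type.

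Dio3 exceeded Meg3 in the wild type and not in every converted library. The ratio of Dio3 to Meg3 in normalized counts was 1.41 and 0.516 in conv-dSVA_F&D, 1.52 and 0.890 in conv-dSVA_F, 0.535 and 0.698 in conv-dSVA_D and 5.99 in the wild type. The wild type stood apart from all converted libraries, and the first replicate of conv-dSVA_F&D and of conv-dSVA_F kept more Dio3 than Meg3. No test was made of the ratios, which use the same counts as the tests above.

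Per kilobase of merged exon, so that genes can be set side by side, Dio3 had the highest median level over the 7 libraries, 141 normalized counts per kb, and Rian was close behind with 127. The ranges of these 2 genes over the libraries, 129 to 316 for Dio3 and 67.2 to 152 for Rian, overlapped. Mirg followed with a median of 67.4, Meg3 with 17.8 and Dlk1 with 6.62 per kb. The range of Mirg, 28.7 to 82.2, overlapped that of Rian and lay just above that of Meg3, 5.91 to 28.6. The range of Dlk1, 2.51 to 9.16, overlapped that of Meg3 at its low end. In the wild type Dio3, at 316 per kb, stood highest and Rian, at 67.2, stood next. Merged exons were 18089 bases in Meg3, 18234 in Rian, 7292 in Mirg, 5657 in Dlk1 and 2030 in Dio3, and isoforms that use less of them would have a higher level per kb than given here.

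Between the converted lines, which differ in the labelled SVA elements, no member of the domain passed. Mirg had the lowest value in conv-dSVA_F&D and the highest in conv-dSVA_D by group mean, 400 ± 254 and 556 ± 60.6 normalized counts (SD, n = 2 each), with 459 ± 46.2 in conv-dSVA_F. For conv-dSVA_F&D minus conv-dSVA_D the log2 differences were -0.28 for Meg3, -0.34 for Rian, -0.63 for Mirg, 0.35 for Dlk1 and 0.20 for Dio3. The 95% intervals were -1.0 to 0.43, -0.86 to 0.19, -1.45 to 0.18, -0.86 to 1.57 and -0.33 to 0.72 in the same order, so that changes of the size seen against the wild type in Meg3 and Dio3 lay outside them. With limma 0 of 5 passed, beside 3.16% of all genes, and 0 had an unadjusted p under 0.05, beside 19.8%. There edgeR and DESeq2 each called 0, beside 2.87% and 7.72% of all genes.

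For conv-dSVA_F&D minus conv-dSVA_F the log2 differences were 0.28 for Meg3, -0.29 for Rian, -0.36 for Mirg, -0.47 for Dlk1 and -0.16 for Dio3. With limma 0 of 5 passed, beside 3.92% of all genes, 0 had an unadjusted p under 0.05, beside 20.7%, and edgeR and DESeq2 each called 0, beside 3.67% and 9.84%; DESeq2 gave Dlk1 no adjusted p. For conv-dSVA_F minus conv-dSVA_D the differences were -0.57 for Meg3 (95% interval -1.29 to 0.15), -0.04 for Rian, -0.28 for Mirg, 0.83 for Dlk1 (95% interval -0.39 to 2.04) and 0.36 for Dio3. Here too 0 of 5 passed with limma, beside 1.35% of all genes, 0 had an unadjusted p under 0.05, beside 16.7%, and edgeR and DESeq2 each called 0, beside 1.3% and 5.03%. The test of any difference among the 3 lines gave limma adjusted p between 0.480 and 0.566 for the 5 members, beside 5.58% of all genes that passed.

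**Figure D3:**
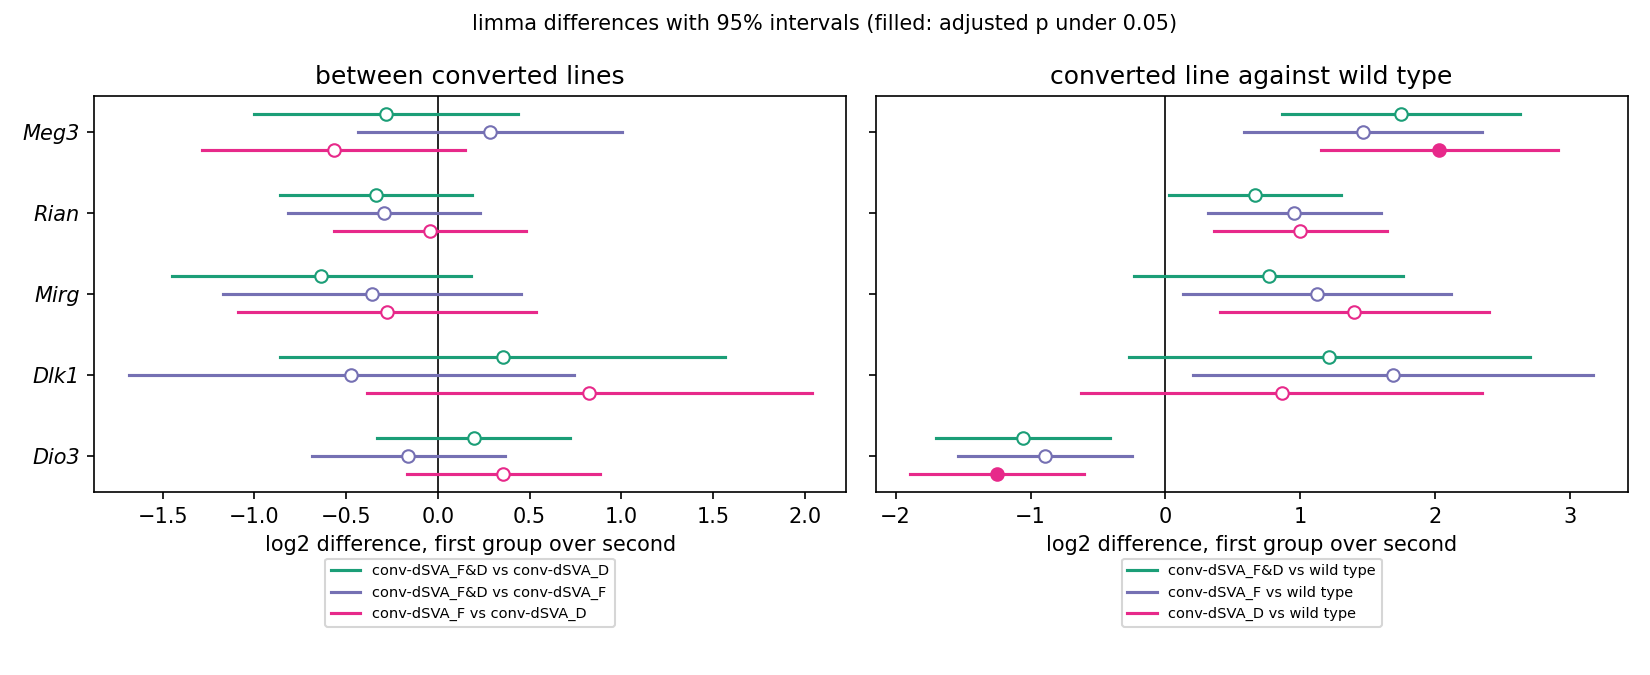
Log2 difference (horizontal axis) of each member, first group over second, with its 95% interval from limma, between converted lines on the left and against the wild type on the right; filled points have an adjusted p under 0.05. All intervals on the left include 0, and the filled points are Meg3 and Dio3 in conv-dSVA_D against the wild type.

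The comparisons with conv-dSVA_F&D depend on its replicates. They differed 2.06-fold for Meg3, 1.79-fold for Rian and 2.64-fold for Mirg, while the replicates of conv-dSVA_F differed 1.05- to 1.18-fold and those of conv-dSVA_D 1.17- to 1.37-fold for these genes. Dlk1 differed 1.21-fold and Dio3 1.33-fold between the conv-dSVA_F&D replicates. Without the first conv-dSVA_F&D library the differences between conv-dSVA_F&D and conv-dSVA_D were 0.24 for Meg3, 0.08 for Rian and 0.06 for Mirg. Without the second, Mirg was -1.33 (limma adjusted p = 0.0269) against conv-dSVA_D and -1.06 (limma adjusted p = 0.0434) against conv-dSVA_F, and passed, where 1.97% and 2.76% of all genes passed. Either fit leaves 1 conv-dSVA_F&D library, taken to vary as much as the other converted lines do. The 2 libraries therefore give different answers for this line, and with n = 2 neither can be preferred.

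Libraries with more Rian tended to have more Mirg and Meg3, though not in every case. Both conv-dSVA_F libraries had more Rian than the second conv-dSVA_D library, and less Mirg and Meg3. Over the 7 libraries the Pearson correlation of log2 levels was 0.97 for Rian with Mirg, 0.88 for Meg3 with Rian and 0.86 for Meg3 with Mirg, and over the 6 converted libraries it was 0.96, 0.72 and 0.76 in the same order. Dio3 ran the other way, at -0.94 with Meg3 over 7 libraries and -0.78 over the 6 converted. Dlk1 was at 0.59 with Meg3 over 7 libraries and at -0.08 over the 6 converted, so that this relation rests on the wild type. These points share 1 wild-type library, the replicates of each line and the scaling, and are given as descriptions.

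**Figure D4:**
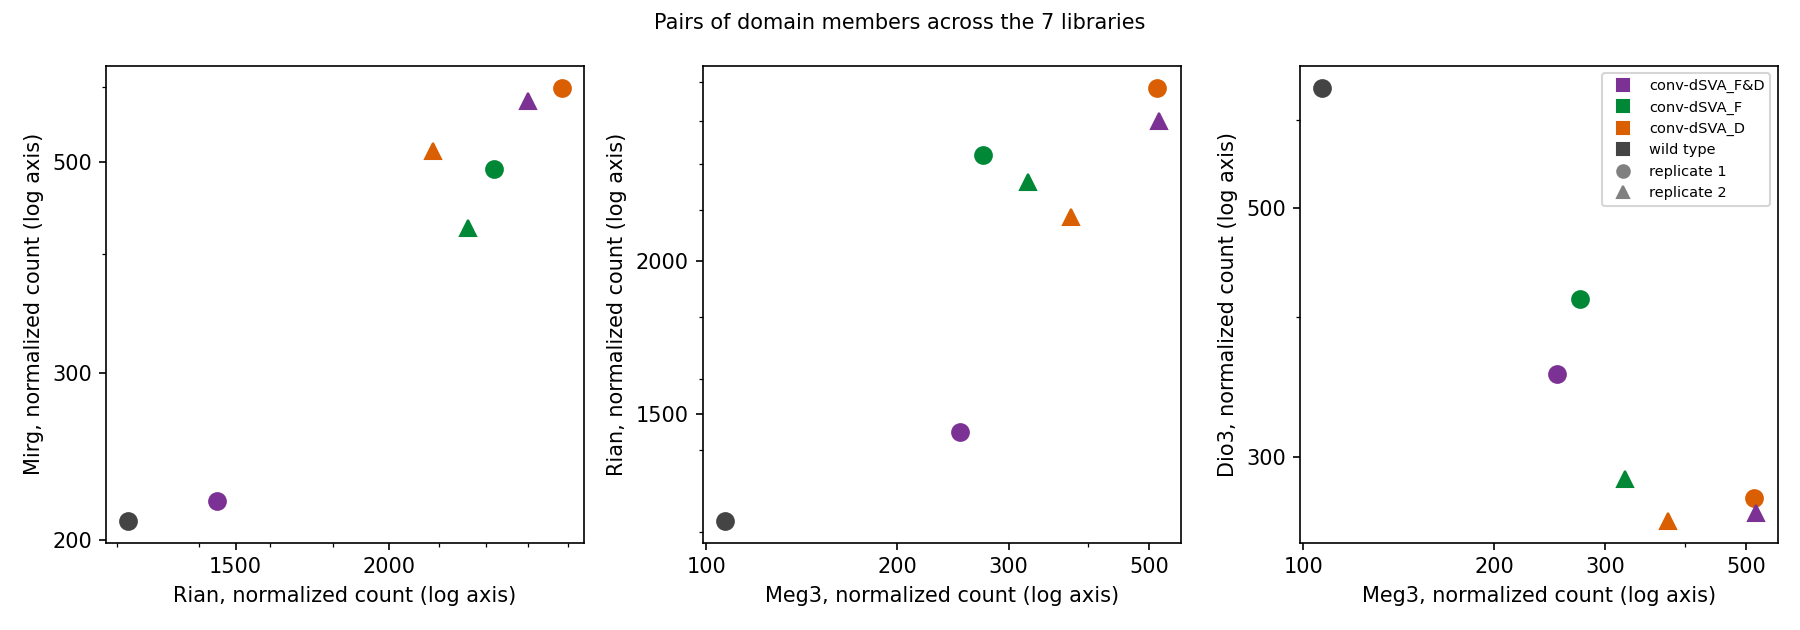
Normalized counts of Mirg against Rian, Rian against Meg3 and Dio3 against Meg3 in the 7 libraries, on log axes; colours are lines, circles replicate 1 and triangles replicate 2. Mirg and Rian tend to rise together across the libraries, and the wild type and the first conv-dSVA_F&D library are low for both. The wild type stands apart at low Meg3 and high Dio3.

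Less studied noncoding transcripts of the same stretch include B830012L14Rik and Gm37899. B830012L14Rik, a noncoding transcript between Rian and Mirg, was at 101 and 203 normalized counts in conv-dSVA_F&D, 149 and 141 in conv-dSVA_F, 228 and 112 in conv-dSVA_D and 55.7 in the wild type. Gm37899, just beyond Rian, was at 45.8 and 61.3 in conv-dSVA_F&D, 83.4 and 90.4 in conv-dSVA_F, 71.1 and 44.9 in conv-dSVA_D and 27.3 in the wild type. Both were lowest in the wild type, and neither passed in any comparison with limma. B830012L14Rik correlated with Meg3 at 0.93 over 7 libraries and 0.80 over the 6 converted, and Gm37899 at 0.66 and 0.03. With Dlk1, Gm37899 correlated at 0.95 and 0.89. Of the 11 domain genes tested, DESeq2 called B830012L14Rik in the mean of the converted lines against the wild type beside Meg3, Rian, Mirg and Dio3, and gave the other 6 no adjusted p.

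Dio3os, a transcript from the opposite strand just before Dio3, was at 30.2 and 11.1 normalized counts in conv-dSVA_F&D, 18.7 and 19.3 in conv-dSVA_F, 5.76 and 11.4 in conv-dSVA_D and 28.4 in the wild type. Only the first conv-dSVA_F&D library exceeded the wild type. It correlated at -0.81 with Meg3 and 0.68 with Dio3 over 7 libraries, and at -0.90 and 0.64 over the 6 converted. Its exons do not overlap those of Dio3. Rtl1, the retrotransposon-derived protein-coding gene of the domain, had 0 reads in all 7 libraries, which allows up to 3 reads in each.

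Reads over the small RNA genes were few. Summed over 61 miRNA genes they came to 73.3 and 118 normalized counts in conv-dSVA_F&D, 174 and 132 in conv-dSVA_F, 179 and 116 in conv-dSVA_D and 61.1 in the wild type. Summed over 19 snoRNA genes they came to 22.9 and 40.4 in conv-dSVA_F&D, 62.1 and 69.1 in conv-dSVA_F, 45.1 and 63.7 in conv-dSVA_D and 21.8 in the wild type. The wild type was lowest in both sums and the first conv-dSVA_F&D library next, as for Rian and Mirg. Among the snoRNA genes that lie within annotated Rian, only Gm24564 had reads. The others with reads, Gm23787 and Gm25856 among them, lie beyond its annotated end. In a total RNA library such reads need not come from the mature small RNAs, and the sources used here do not say how reads over nested genes were assigned.

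Mir433 was at 6.41 and 22.3 normalized counts in conv-dSVA_F&D, 23.8 and 11.2 in conv-dSVA_F, 13.4 and 12.3 in conv-dSVA_D and 4.37 in the wild type. Mir3070b was at 10.1 and 18.1 in conv-dSVA_F&D, 6.81 and 16.3 in conv-dSVA_F, 12.5 and 9.80 in conv-dSVA_D and 2.2 in the wild type. Both were lowest in the wild type, and both passed the filter through the converted libraries. The counts were close to the floor, and neither passed with limma in any comparison. The snoRNA Gm23787 was at 3.66 and 0 in conv-dSVA_F&D, 14.5 and 15.2 in conv-dSVA_F, 8.64 and 22 in conv-dSVA_D and 8.73 in the wild type. It was the single domain gene tested that was lower in conv-dSVA_F&D than in every other library, and its difference did not pass (limma adjusted p = 0.174 against conv-dSVA_D and 0.159 against conv-dSVA_F).

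Of the 16 neighbours of the domain 1, Mok, passed in any comparison with limma or edgeR. The 8 tested protein-coding genes upstream were Ccdc85c, Eml1, Evl, Yy1, Slc25a47, Wars, Wdr25 and Begain. With limma 0 of 8 passed in any comparison, beside 0.0262 to 5.58% of all genes. At most 1 had an unadjusted p under 0.05, beside 16.1 to 20.7% of all genes outside the test of any difference. In every comparison edgeR and DESeq2 called 0, beside 0.0394 to 3.8% and 4.86 to 9.84% of all genes outside that test. Downstream were Ppp2r5c, Dync1h1, Hsp90aa1, Wdr20, Mok, Zfp839, Cinp and Tecpr2. Among them Mok, a kinase gene, was at 603 and 489 normalized counts in conv-dSVA_F&D, 265 and 291 in conv-dSVA_F, 351 and 454 in conv-dSVA_D and 883 in the wild type. Mok exceeded in conv-dSVA_F&D its level in conv-dSVA_F by 0.96 on the log2 scale (limma adjusted p = 0.0311). Its log2 difference from the wild type was -1.66 in conv-dSVA_F (limma adjusted p = 0.0170) and -1.14 in conv-dSVA_D (limma adjusted p = 0.0378). For the mean of the lines it was -1.17 (limma adjusted p = 0.0425). Mok also passed the test of any difference (limma adjusted p = 0.0474). It was 1 of 8 downstream genes called each time, beside 3.92%, 1.82%, 3.61%, 1.15% and 5.58% of all genes in that order. DESeq2 also called Cinp in conv-dSVA_D (log2 difference -0.66, DESeq2 adjusted p = 0.0412) and for the mean of the lines (-0.63, DESeq2 adjusted p = 0.0239) against the wild type, where limma had -0.66 (adjusted p = 0.0844) and -0.63 (adjusted p = 0.0878). Over 376 genes of chromosome 12 the median log2 difference (converted library minus wild type) less that of all genes was between -0.11 and -0.03 in the converted libraries, and over the 16 neighbours it was between -0.14 and 0.08.

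Genes that set or read imprints were examined as a list of 22, chosen with earlier results of these data known, and all 22 were tested. The list holds DNA methyltransferases, the TET enzymes, ZFP57 and its partners, Polycomb subunits, CTCF and other chromatin regulators. Jarid2, a partner of the Polycomb PRC2 complex, averaged 8180 ± 965 normalized counts in conv-dSVA_F&D, above the 5297 ± 777 of conv-dSVA_D (SD, n = 2 each; log2 difference 0.63, limma adjusted p = 0.0399). It was 1 of 22 called in that pair by limma and by edgeR, beside 3.16% and 2.87% of all genes. An unadjusted p under 0.05 was found there for 5 of 22, beside 19.8%. For conv-dSVA_F&D against conv-dSVA_F and conv-dSVA_F against conv-dSVA_D limma called 0 of 22, beside 3.92% and 1.35%. There edgeR also called 0, beside 3.67% and 1.3%. In each of these pairs 4 of 22 had an unadjusted p under 0.05, beside 20.7% and 16.7% of all genes. DESeq2 called Jarid2 and Dnmt3b between conv-dSVA_F&D and conv-dSVA_D, Ctcf between conv-dSVA_F&D and conv-dSVA_F, and Zfp445 and Dnmt3b between conv-dSVA_F and conv-dSVA_D. These were 2, 1 and 2 of 22, beside 7.72%, 9.84% and 5.03% of all genes. In the test of any difference Dnmt3b, a de novo methyltransferase, passed with limma (adjusted p = 0.0443), and edgeR called 0 of 22. With limma it was 1 of 22, beside 5.58% of all genes. DESeq2 called 4 of 22 in that test, Zfp445, Dnmt3b, Jarid2 and Ctcf, and 7 had an unadjusted p under 0.05 with limma. The shares of all genes for these last counts were not taken. Dnmt3b was at 2589 ± 218 in conv-dSVA_F&D, 2897 ± 52.4 in conv-dSVA_F, 1621 ± 509 in conv-dSVA_D (SD, n = 2 each) and 2340 in the wild type. Against the wild type 0 of 22 passed with limma for any line, beside 0.0262 to 3.61% of all genes. An unadjusted p under 0.05 was found for 5 to 8, beside 16.1 to 20.2% of all genes. For each line edgeR called 0, beside 0.0394 to 3.8%, and DESeq2 1 or 2, beside 4.86 to 8.47%.

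Imprinted genes outside the domain were followed as a list of 38, of which 32 were tested. Between conv-dSVA_F&D and conv-dSVA_D 5 were higher and 2 lower, beside 3.16% of all genes called in either direction. Between conv-dSVA_F&D and conv-dSVA_F 1 was higher and 3 lower, beside 3.92%, and between conv-dSVA_F and conv-dSVA_D 9 were higher and 1 lower, beside 1.35%. In these pairs, in that order, edgeR called 6, 4 and 11, beside 2.87%, 3.67% and 1.3% of all genes. DESeq2 called 8, 5 and 11, beside 7.72%, 9.84% and 5.03%. Relative to the wild type limma called 0 in conv-dSVA_F&D, beside 0.0262% of all genes. It called 3 higher and 1 lower in conv-dSVA_F, beside 1.82%, and 2 higher and 2 lower in conv-dSVA_D, beside 3.61%. For the mean of the lines it called 2 higher and 0 lower, beside 1.15%. For conv-dSVA_F&D 6 had an unadjusted p under 0.05, beside 16.1% of all genes. There edgeR called 0, beside 0.0394%, and DESeq2 called 1, beside 4.86%.

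The 4 imprinted genes with the smallest p of any difference moved in different directions. H19, a maternally expressed noncoding RNA, was at 973 ± 649 normalized counts in conv-dSVA_F&D, 1327 ± 1093 in conv-dSVA_F, 12.1 ± 3.25 in conv-dSVA_D (SD, n = 2 each) and 350.4 in the wild type. It fell in conv-dSVA_D relative to the wild type by 4.77 on the log2 scale (limma adjusted p = 0.0154) and was higher than in conv-dSVA_D by 6.06 in conv-dSVA_F&D (limma adjusted p = 0.00407) and by 6.39 in conv-dSVA_F (limma adjusted p = 0.00439). Mest, a paternally expressed gene, was at 792 ± 174 in conv-dSVA_F&D, 3493 ± 40.4 in conv-dSVA_F, 1589 ± 410 in conv-dSVA_D (SD, n = 2 each) and 537 in the wild type, and differed between each pair of lines (limma adjusted p of 0.0302 or less). Grb10, an adaptor of growth factor receptors, was at 2789 ± 583 in conv-dSVA_F&D, 908 ± 257 in conv-dSVA_F, 4305 ± 2005 in conv-dSVA_D (SD, n = 2 each) and 3603 in the wild type. It was lower in conv-dSVA_F than in conv-dSVA_D by a log2 difference of -2.19 (limma adjusted p = 0.0172) and than in the wild type by one of -2.02 (limma adjusted p = 0.0324). Peg3, a paternally expressed zinc finger gene, was at 2407 ± 780 in conv-dSVA_F&D, 3105 ± 607 in conv-dSVA_F, 1057 ± 169 in conv-dSVA_D (SD, n = 2 each) and 2005 in the wild type. It was higher than in conv-dSVA_D by 1.16 in conv-dSVA_F&D (limma adjusted p = 0.0271) and by 1.55 in conv-dSVA_F (limma adjusted p = 0.0193). The median over the 32 genes was 0.53 for conv-dSVA_F minus conv-dSVA_D, beside -0.01 over all genes tested and -0.04 over the 5 domain members. Whether the members differ from these genes was not tested.

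Genes of the pathways in which DLK1 and DIO3 act were also followed. Of 18 genes of the Notch pathway, to which DLK1 belongs as a non-canonical ligand, 14 were tested. Jag1, a Notch ligand, was at 587 ± 6.87 normalized counts in conv-dSVA_F&D, 323 ± 35.7 in conv-dSVA_F and 684 ± 160 in conv-dSVA_D (SD, n = 2 each). Its log2 difference was 0.86 between conv-dSVA_F&D and conv-dSVA_F (limma adjusted p = 0.0432) and -1.06 between conv-dSVA_F and conv-dSVA_D (limma adjusted p = 0.0371). Maml1, a coactivator of Notch, exceeded in conv-dSVA_F&D its level in conv-dSVA_F (0.76, limma adjusted p = 0.0436). These were 2 of 14 between conv-dSVA_F&D and conv-dSVA_F, beside 3.92% of all genes, and Jag1 was 1 of 14 between conv-dSVA_F and conv-dSVA_D, beside 1.35%. The other 12 did not pass in any pair with limma or edgeR. DESeq2 also called the receptor gene Notch3 in both of these pairs, where it called 9.84% and 5.03% of all genes. Notch3, at 570 ± 231 in conv-dSVA_F&D, 313 ± 31.8 in conv-dSVA_F and 719 ± 28.7 in conv-dSVA_D (SD, n = 2 each), passed the test of any difference (limma adjusted p = 0.0480). Of 12 thyroid hormone genes 7 were tested, and Thra, a nuclear receptor for the hormone that DIO3 inactivates, averaged 285 ± 48.2 normalized counts in conv-dSVA_F&D, above the 123 ± 12.9 of conv-dSVA_D (SD, n = 2 each; log2 difference 1.19, limma adjusted p = 0.0434). It was 1 of 7, beside 3.16% of all genes. Against the wild type 0 of 14 and 0 of 7 passed with limma for any line, beside 0.0262 to 3.61% of all genes. An unadjusted p under 0.05 was found for 2 to 5 and 0 to 2, beside 16.1 to 20.2% of all genes. There edgeR called 0 of each, beside 0.0394 to 3.8%. DESeq2 called 0 to 2 of the 14 and 0 of the 7, beside 4.86 to 8.47%.

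Markers of cell types were followed beside the domain. Nanog, a pluripotency factor, averaged 17880 ± 2311 normalized counts in conv-dSVA_F&D, below the 27956 ± 265 of conv-dSVA_D (SD, n = 2 each; log2 difference -0.65, limma adjusted p = 0.0282). It was 1 of 12 pluripotency markers called there, beside 3.16% of all genes. For conv-dSVA_F&D against conv-dSVA_F and conv-dSVA_F against conv-dSVA_D limma called 0 of 12, beside 3.92% and 1.35%. In these pairs 3 and 6 had an unadjusted p under 0.05, beside 20.7% and 16.7% of all genes. There edgeR called 0, beside 3.67% and 1.3%, and DESeq2 0 and 2, beside 9.84% and 5.03%. Against the wild type limma called 2, 1 and 0 of 12 in conv-dSVA_D, conv-dSVA_F and conv-dSVA_F&D, beside 3.61%, 1.82% and 0.0262% of all genes. An unadjusted p under 0.05 was found for 7, 4 and 3, beside 20.2%, 19.2% and 16.1%. DESeq2 called 3, 4 and 2, beside 7.57%, 8.47% and 4.86%. Esrrb, a pluripotency factor, was higher in conv-dSVA_D than in the wild type (0.81, limma adjusted p = 0.0351). The stem cell marker Utf1 was higher there too (1.40, limma adjusted p = 0.0431). Sox2, a pluripotency factor, was lower in conv-dSVA_F than in the wild type (-0.66, limma adjusted p = 0.0438), which edgeR did not call. Esrrb was at 12886 ± 535 normalized counts in conv-dSVA_F&D, 10630.0 ± 1990.1 in conv-dSVA_F, 14986 ± 527 in conv-dSVA_D (SD, n = 2 each) and 8574 in the wild type. The part of these markers in the values of Meg3 and Dio3 was not tested. Acta2, a smooth muscle actin found in fibroblasts, was lower in conv-dSVA_F&D relative to conv-dSVA_F (-3.42, limma adjusted p = 0.0263). It was 1 of 7 fibroblast and feeder markers called there, beside 3.92% of all genes. In conv-dSVA_D limma called 2 of 7 against the wild type, beside 3.61%. These were Acta2 (-3.87, limma adjusted p = 0.0369) and Fbln2, a matrix protein gene (-2.32, limma adjusted p = 0.0438). Of 7 primitive endoderm and 8 mesoderm and neural markers tested, 0 passed with limma or edgeR in any comparison. Of all genes, limma called 0.0262 to 5.58%, and edgeR called 0.0394 to 3.8% outside the test of any difference. At most 2 of each list had an unadjusted p under 0.05, beside 16.1 to 20.7% of all genes outside that test. DESeq2 called at most 1 of the endoderm and 2 of the mesoderm and neural markers, beside 4.86 to 9.84% of all genes outside that test. Depending on the comparison, it gave no adjusted p to 1 to 7 of the endoderm and 2 to 4 of the mesoderm and neural markers. Against the wild type all 7 endoderm markers were without one in conv-dSVA_F&D and for the mean of the lines.

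Genes whose levels were most like that of Meg3 were sought among 9818 genes with a mean of at least 100 outside the domain, by Pearson correlation of log2 levels over the 7 libraries. The most alike were Exog (0.99), Spred1 (0.99), Atxn7l2 (0.98), Jmjd4 (0.97) and Adat1 (0.97), and the most opposite were Stk3 (-0.98), A4galt (-0.97), Abt1 (-0.96), Spice1 (-0.96) and Zfp825 (-0.96). Spred1, an inhibitor of RAS signalling, was at 1296 and 1791 normalized counts in conv-dSVA_F&D, 1485 and 1485 in conv-dSVA_F, 1764 and 1591 in conv-dSVA_D and 892 in the wild type. These genes were picked for their correlation, and 0.978% of the genes were above 0.9 and 0.397% below -0.9. The correlation of Taf1 with Meg3 was -0.75 over 7 libraries and -0.20 over the 6 converted. It carries the limit on the Taf1 counts of the humanized allele given above.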

How the data were processed

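The authors deposited 1 table of normalized counts, a signal per gene and library, made with DESeq2 as far as the submitters' processing notes and the values show. The same notes list the build mm10 and featureCounts 1.6.3, STAR 2.7.3, deepTools 3.1.0, Trimmomatic 0.36 and Picard 2.18.20; strand setting and annotation are not given in the sources used here. The smallest step between values gave back the reads, and in every library 100% of values above 0 came within 0.1 of a whole read.

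Differences were tested with limma 3.58.1 (R 4.3.3; lmFit, eBayes with a variance trend) on log2 of the normalized count plus 1, over 15240 genes with a mean of at least 10, with 1 mean for each of 4 groups, p-values adjusted by Benjamini-Hochberg over all 15240, two-sided, called under 0.05. The added 1 understates differences of genes with few reads. Intervals use 9.80 degrees of freedom. Alternatives were edgeR 4.0.16 and DESeq2 1.42.0 on the recovered reads, other pseudocounts, no filter, TMM scaling, no variance trend, fewer libraries and leaving out libraries.

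The script was tested on simulated counts of 15240 genes: between conv-dSVA_F&D and conv-dSVA_D it recovered 50% of 100 genes changed 2-fold and 78% of 100 changed 4-fold. Genes were changed in conv-dSVA_F&D only, with the same spread for genes of like level. Recovery against the single wild-type library was not computed, and the gap between the conv-dSVA_F&D replicates was not simulated. The members, the gene lists and the tests were chosen with earlier results of these data known. Named genes were the 5 members, all tested domain genes, 8 neighbours on each side, up to 4 genes of each list by the smallest p of any difference plus those that passed in a pair of lines where these were at most 6, and the 5 most alike and most opposite to Meg3. Taf1 was added as the edited gene, and Utf1, Cinp, Postn, Col1a2 and Thy1 were named after their values were seen. Of the 54456 genes, 93.1% matched a GENCODE M21 name.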

Additional observations from a re-analysis of the deposited data

Results flagged for a closer look

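The snoRNA Gm23787 differed in direction between lines relative to the wild type: both conv-dSVA_F&D libraries, at 3.66 and 0 normalized counts, lay below it, and both conv-dSVA_F libraries, at 14.5 and 15.2, lay above it, the wild type being at 8.73. The log2 difference of conv-dSVA_F&D from conv-dSVA_F was -2.88 and did not pass (limma adjusted p = 0.159). The conv-dSVA_F&D values rest on 4 and 0 reads, and no cause was tested.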

How the results depend on the processing

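No paired analysis was possible because the labels give no replicate numbers that groups share. Between converted lines the count of members that passed stayed at 0 in every alternative run except without the second conv-dSVA_F&D library, so leaving out single libraries gave 0 to 1 for conv-dSVA_F&D against conv-dSVA_D, for conv-dSVA_F&D against conv-dSVA_F and for any difference. Leaving out single libraries turned the sign of differences that had not passed. For conv-dSVA_F&D minus conv-dSVA_D the lowest and highest values were -0.80 and 0.24 for Meg3, -0.76 and 0.084 for Rian, -1.33 and 0.063 for Mirg, and -0.0091 and 0.40 for Dio3, all set by leaving out the second or the first conv-dSVA_F&D library, and -0.13 and 0.83 for Dlk1, set by the conv-dSVA_D libraries. For conv-dSVA_F&D minus conv-dSVA_F they were -0.24 and 0.80 for Meg3, -0.71 and 0.13 for Rian, -1.06 and 0.34 for Mirg and -0.43 and 0.11 for Dio3 (0.04 without the second conv-dSVA_F&D library). For conv-dSVA_F minus conv-dSVA_D they were -0.22 and 0.13 for Rian.

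Against the wild type, leaving out single converted libraries gave 0 to 3 members in conv-dSVA_F, 0 to 4 in conv-dSVA_D, 0 to 2 in conv-dSVA_F&D and 0 to 4 for the mean of the lines. DESeq2 called 2 in conv-dSVA_F, 4 in conv-dSVA_D, 2 in conv-dSVA_F&D and 4 for the mean, and it called more of all genes too (1064 in conv-dSVA_D against 550 with limma). With no filter and with no variance trend 0 passed in conv-dSVA_D and for the mean, and with edgeR and with a pseudocount of 0.5 0 passed for the mean; the cause was not tested. TMM scaling and a pseudocount of 10 changed no count. Of 555 single-gene values under alternatives, 495 kept their direction and side of the threshold. Dlk1 rests on 13 to 52 reads per library, and each comparison with the wild type on 1 library of it. A fit that leaves 1 library in a line takes its spread from the other groups.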
